A study of Rattus norvegicus with 14 samples.

Results

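Gene expression in blood mononuclear cells was compared between rats with collagen-induced arthritis that had received no therapy and healthy rats sampled at the same stage. The comparison uses 5 of the 14 arrays of the series. CIA_B, arthritic rats before therapy, has 2 arrays, and NOCIA_B, healthy rats before therapy, has 3. All animals were female Wistar rats, and their age is not given in the sources used here. Arthritis had been raised by injecting bovine type II collagen, the main collagen of joint cartilage, first in complete Freund's adjuvant and then as a booster in incomplete adjuvant. Whether the healthy rats received adjuvant is not given in the sources used here, so adjuvant and arthritis cannot be told apart. The labels call these groups RA and NORA, they do not say why CIA_B has fewer arrays, and matching them to the codes of the study is a reading made here. The other 9 arrays are MS_A (arthritic rats after 34 days of needle stimulation, n = 3), MTXMS_A (the same with methotrexate, n = 3) and NOCIAMS_A (healthy rats after 34 days of needle stimulation, n = 3). Of these, MS_A against NOCIAMS_A sets arthritic against healthy rats again, on other animals, and is used below as a second contrast. Rats were killed at sampling, each array holds other animals, and p-values measure the spread between these arrays.

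Collagen-induced arthritis is a standard rodent model in which immunisation against cartilage collagen drives T cell help, antibodies to collagen and inflammation of the joints. Blood mononuclear cells are the T cells, B cells, natural killer (NK) cells and monocytes that stay at the interface of a density gradient, and such preparations also carry platelets, some red cell precursors and, in inflamed animals, low-density neutrophils. Since whole preparations were measured, fewer cells of a type and less RNA per cell cannot be told apart.

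The values are MAS5 signals, the brightness of a probe set on a linear scale, and fold changes are differences of log2 signals, CIA_B minus NOCIA_B, with a standard error from limma fitted over all 14 arrays. A probe set was tested where its signal was above the median of the array on 2 or more of the 14 arrays, which left 18515 probe sets, and counts of genes use 1 probe set for each of 10107 genes. No probe set passed limma's test at a Benjamini-Hochberg adjusted p of 0.05, 0% of those tested, and the lowest adjusted p was 0.534. With array weights, which give a less regular array less say, limma called 765 probe sets. An unadjusted p under 0.05 was reached by 1569 probe sets (8.47%), and the thresholds of the study, an unadjusted p of 0.05 and a fold of 2, by 866 probe sets (4.68%). Each gene named below had an adjusted p of 0.583 or more in limma, so its values are a description of these arrays and none is a call.

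Genes found in mononuclear cells were read on all 5 arrays. Cd2, an adhesion molecule of T and NK cells, had 5002 and 4308 in CIA_B and 3195, 2382 and 2199 in NOCIA_B. Lyz2, the lysozyme of monocytes and granulocytes, had 32647 and 37684 in CIA_B and 37013, 32400.3 and 60034 in NOCIA_B. These genes do not show how pure the preparations were, and platelet, erythroid and neutrophil genes were read as well. The NOCIA_B arrays differed among themselves. NOCIA_B replicate 3 had the lowest mean correlation with the other arrays (0.860, against 0.887 to 0.910 for the others), the highest signal of spiked-in controls, 1.88 times the median array, and the highest erythroid score, 2.00. NOCIA_B replicate 1 had a platelet score of -0.73, against -1.10 and -0.57 in CIA_B and 0.98 and 1.29 on the other NOCIA_B arrays. A score averages the log2 signals of a list, each taken relative to that gene's 14-array mean. Estimated array weights were lowest for NOCIA_B replicate 1 with 0.321 and NOCIA_B replicate 3 with 0.289, and highest for NOCIA_B replicate 2 with 2.83.

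**Figure D1:**
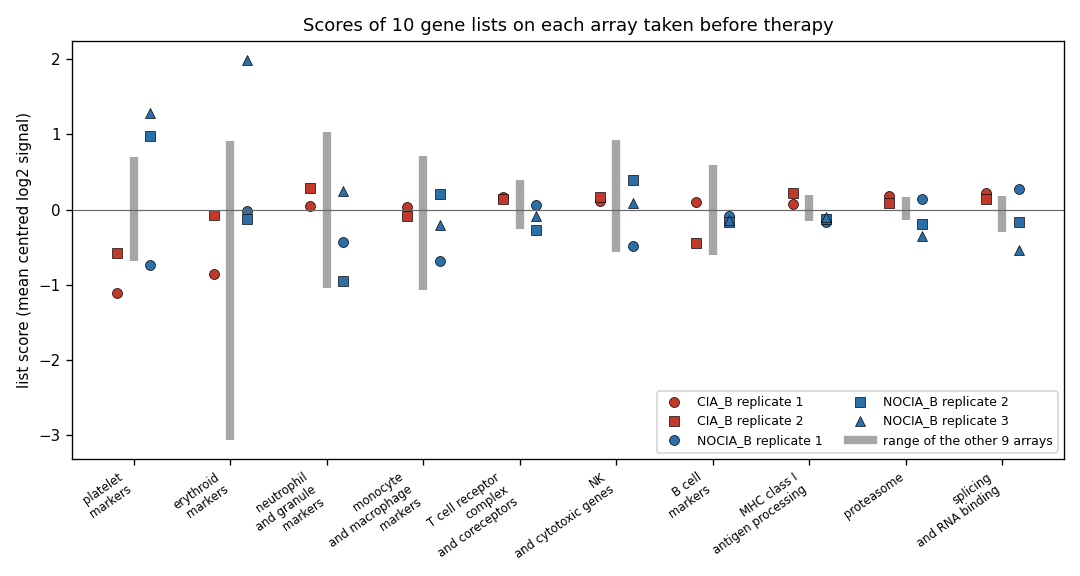
Score of 10 gene lists (vertical axis, mean centred log2 signal) on each CIA_B array (red) and NOCIA_B array (blue), with the range of the other 9 arrays as a grey bar. Platelet scores of both CIA_B arrays (-1.10 and -0.57) lie near that of NOCIA_B replicate 1 (-0.73), the erythroid score of NOCIA_B replicate 3 (2.00) lies above the rest, and the scores of MHC class I antigen processing do not overlap between the groups.

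More genes were lower than higher in arthritic rats at the thresholds of the study. At these thresholds 391 of 10107 genes were lower in CIA_B (3.87%) and 49 were higher (0.485%), although 57% of all genes had a fold change above 0, 43% had one below 0 and the median was 0.08. NOCIA_B replicate 3 had the highest of the 3 healthy signals for 298 of the 391 lower genes (76.2%, against 37% of all genes), and replicate 1 the lowest for 291 (74.4%, against 32% of all genes). Without NOCIA_B replicate 1 the thresholds were reached by 817 higher and 1284 lower probe sets, and without NOCIA_B replicate 3 by 109 and 255, against 157 (0.848%) and 709 (3.83%) with all arrays. Without NOCIA_B replicate 1 limma called 168 probe sets at the adjusted p. A total of 15 higher and 72 lower probe sets stayed at the thresholds with all arrays and without each of the 5 arrays in turn, 14 of them among the genes named by rule. These were Gzmm on the higher side, and Src, Rasgrp3, Tnik, Usp9x, Cpq, Prtfdc1, Dennd2c, Ubash3b, C1galt1, Epor, Thbs2, Serpine2 and Egln3 on the lower side.

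**Figure D2:**
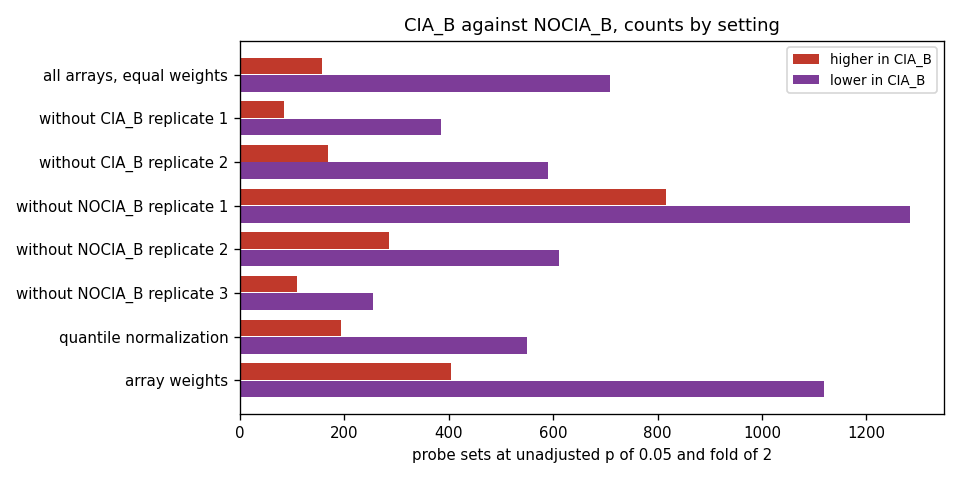
Number of probe sets (horizontal axis) at an unadjusted p of 0.05 and a fold of 2 in CIA_B against NOCIA_B, higher in red and lower in purple, with all arrays, without each of the 5 arrays, with quantile normalization and with array weights. Lower probe sets outnumber higher ones in each of these settings, and the higher count spans 84 to 817 when 1 array is left out.

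Several genes of cytotoxic lymphocytes had higher signals on both arthritic arrays than on any healthy array. Gzmm, a granule protease of cytotoxic lymphocytes, had signals of 7375 and 9498 in CIA_B, against 3207, 4090.2 and 3467 in NOCIA_B. Both arthritic arrays lay above all healthy arrays, and the fold change was 1.23 ± 0.35 (SE, unadjusted p = 0.00447). Cd8a, the alpha chain of the coreceptor of cytotoxic T cells, was read by 3 probe sets, with fold changes between 0.78 and 1.10. The first had 3626 and 4578 in CIA_B, against 2382, 1718 and 1686 in NOCIA_B (fold change 1.10 ± 0.32, SE), and the second had 8558 and 9497 in CIA_B, against 6992, 4292 and 3755 in NOCIA_B (fold change 0.90 ± 0.30). Cd2 had a fold change of 0.86 ± 0.23, with the groups again apart. Nkg7, a protein of cytotoxic granules, had 7389.7 and 9865 in CIA_B, against 4212, 5582 and 5320.1 in NOCIA_B. Its fold change of 0.77 ± 0.38 missed the unadjusted threshold in limma (unadjusted p = 0.0672). Klrc2, an activating NK receptor chain, had 735 and 884 in CIA_B and 189, 559 and 218 in NOCIA_B, and Klra4, an NK receptor of the Ly49 family, had 642 and 1035 in CIA_B and 255, 262 and 478 in NOCIA_B. For both receptors each arthritic signal was above each healthy one. Sit1, an adaptor that dampens T cell receptor signals, had 4218 and 4851 in CIA_B, against 3231, 1446 and 2078 in NOCIA_B.

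The T cell list was on the whole above 0 and the NK list was mixed. Of 16 tested genes of the T cell receptor complex and coreceptors, 14 had a fold change above 0, with a median of 0.33 beside 0.08 over all genes. An unadjusted p under 0.05 was reached by 3 in the higher and 1 in the lower direction, where 2.86% and 5.28% of all genes did. Leaving out 1 array gave 1 to 6 in the higher direction, with 1 without CIA_B replicate 2 and 6 without NOCIA_B replicate 1. The one on the lower side was Cd4, the coreceptor of helper T cells, with 60.6 and 20.1 in CIA_B, against 88.8, 88.7 and 194 in NOCIA_B. These signals are dim, and in CIA_B both lie under the median of their array (104 and 110.6). Of 24 NK and cytotoxic genes 17 were above 0 (median 0.24), but without NOCIA_B replicate 1, whose score of this list was lowest (-0.49), 11 were above 0 and the median was -0.09. Xcl1, a chemokine of activated CD8 and NK cells, ran the other way, with 98.7 and 16.2 in CIA_B, against 143, 406 and 374 in NOCIA_B. Both of its arthritic signals also lie under the median of their array.

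Genes of helper cells and of antibody production were mixed. Bcl6, the transcription factor of follicular helper T cells and germinal centre B cells, had 1948 and 1794 in CIA_B, against 1082, 1016 and 1043 in NOCIA_B. The spread in each group was small, and the fold change was 0.84 ± 0.28 (SE, unadjusted p = 0.0117). Ctla4, an inhibitory receptor of activated and regulatory T cells, had 338 and 405 in CIA_B and 310.2, 135 and 209 in NOCIA_B (fold change 0.84 ± 0.37). Cxcr5, the receptor that guides B cells and follicular helper cells into follicles, was lower on both arthritic arrays, with 301 and 269 in CIA_B, against 801, 461 and 592 in NOCIA_B (fold change -1.08 ± 0.45). Prkcq, the protein kinase C of T cell receptor signalling, was lower as well, with 6079.8 and 6163 in CIA_B, against 8787, 9445 and 14223 in NOCIA_B (fold change -0.79 ± 0.25). Of 11 plasma cell markers 4 were lower on both CIA_B arrays than on all NOCIA_B arrays and 1 was higher, where 8.7% and 12.7% of all genes did so. Jchain, the joining chain of IgA and IgM, had 1490.3 and 1056 in CIA_B and 2048, 1784 and 1951 in NOCIA_B. Mzb1, a chaperone of antibody assembly, had 905 and 687 in CIA_B and 1281, 1047 and 1182 in NOCIA_B. Xbp1, the factor that drives the secretory programme, was the one on the higher side, with 3701 and 3180.2 in CIA_B, against 2699, 2719 and 1827 in NOCIA_B. The 19 B cell markers had a median of 0.06, with 11 above 0, and of -0.35 without CIA_B replicate 1.

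**Figure D3:**
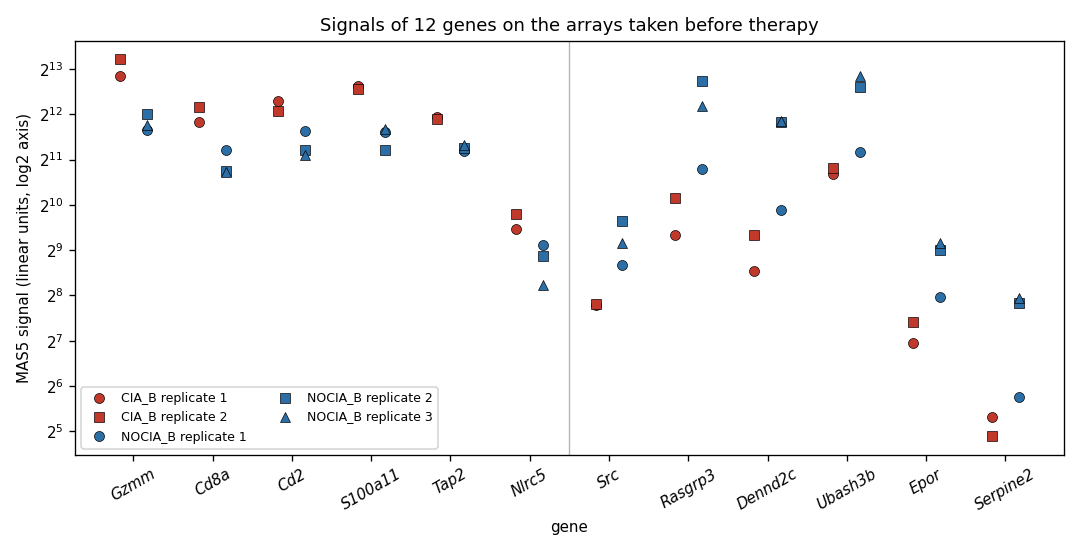
MAS5 signal (vertical axis, linear units on a log2 axis) of 12 genes on each CIA_B array (red) and each NOCIA_B array (blue), with circles, squares and triangles for replicates 1, 2 and 3. The 6 genes on the left are higher on both CIA_B arrays than on all NOCIA_B arrays, the 6 on the right are lower, and for the right-hand genes NOCIA_B replicate 1 is the healthy array nearest to CIA_B.

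Most genes that load peptides onto MHC class I were higher in arthritic rats, by small steps. MHC class I molecules show fragments of a cell's own proteins to CD8 T cells, and the fragments are cut by the proteasome, carried by the TAP transporter and loaded in the endoplasmic reticulum. Tap2, a chain of that transporter, had 3952 and 3807 in CIA_B, against 2347, 2439 and 2556 in NOCIA_B. The arthritic pair was apart from a tight healthy trio, with a fold change of 0.67 ± 0.17 (SE, unadjusted p = 0.00214). Nlrc5, the transactivator of MHC class I genes, had 706 and 884 in CIA_B and 556, 467 and 299 in NOCIA_B (fold change 0.89 ± 0.28). Psmb9, a catalytic subunit of the immunoproteasome, had 5510.4 and 5377 in CIA_B and 2761, 3921 and 3907 in NOCIA_B (fold change 0.64 ± 0.26), and Psme1, a subunit of the proteasome activator PA28, had 17417 and 17823 in CIA_B and 16039.7, 12012 and 10621 in NOCIA_B (fold change 0.47 ± 0.20). Of the 16 tested genes of the list 13 were above 0, 5 reached an unadjusted p under 0.05 in the higher and 0 in the lower direction (2.86% and 5.28% of all genes), and 8 had no overlap between the groups, all higher (12.7% of all genes). The median was 0.40, and it stayed between 0.31 and 0.46 without each of the 5 arrays, while the 5 genes under the unadjusted threshold became 1 without CIA_B replicate 2 and 3 without CIA_B replicate 1 or NOCIA_B replicate 1. The score of the list was 0.08 and 0.22 in CIA_B, against -0.16, -0.12 and -0.10 in NOCIA_B.

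The promoter of Tap2 is shown because it carries the letters bound by interferon-activated factors, which are known to drive this pathway. The interferon-stimulated response element was searched as GAAA, any 2 bases and GAAA again, on both strands of RefSeq promoter windows, 250 bases before to 50 after the annotated start, of build GRCr8. It was found in 8 of the 13 MHC class I genes with a window (61.5%), B2m, Tap1, Tap2, Tapbp, Psmb8, Psmb10, Psme2 and RT1-N3, in 50% of 20 genes of the interferon response list, in 20% of 20 erythroid markers, in 3.18% of the windows of 8455 tested genes and in 3.77% of all 27457 windows. The gamma-activated site, searched as TTCNNNGAA, was found in 1 of the 13 and in 8.68% of all windows. A match is a run of letters and no evidence of binding. The window of Tap2 lies at chr20:4652247-4652546 on the minus strand, and the capitals mark the element, which starts 41 bases before the start site:
Tap2: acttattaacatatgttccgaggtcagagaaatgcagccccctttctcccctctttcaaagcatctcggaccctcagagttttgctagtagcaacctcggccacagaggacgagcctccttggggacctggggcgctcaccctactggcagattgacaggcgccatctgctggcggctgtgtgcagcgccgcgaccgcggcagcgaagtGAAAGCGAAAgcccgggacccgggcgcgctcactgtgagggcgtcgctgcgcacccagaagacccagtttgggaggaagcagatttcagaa
Of 29 tested genes of the interferon response list 20 were above 0, with a median of 0.15, and 0 reached an unadjusted p under 0.05 in either direction. Ifit3, an interferon-induced antiviral protein, had 1153 and 580.5 in CIA_B, against 351, 514 and 391 in NOCIA_B, and Parp9, which takes part in interferon signalling, had 1514 and 1504 in CIA_B and 1379, 1158 and 726 in NOCIA_B. Without NOCIA_B replicate 1 the median of the list was 0.01. Genes of MHC class II had 11 of 12 above 0 with a median of 0.24, and 1 of the 12 was higher without overlap, where 12.7% of all genes were, RT1-DMb, a chain of the peptide exchange factor, with 6174 and 4777 in CIA_B and 4590.1, 4430.2 and 4348 in NOCIA_B. The 1 gene below 0 was Ciita, the class II transactivator, with a fold change of -0.475 ± 0.34. Its second tested probe set had -1.15 ± 0.375. Without CIA_B replicate 1 the class II median was 0.04, with 7 of 12 above 0.

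Neutrophil genes had the highest median of the 44 lists, with a wide spread over the series. S100a11, a calcium-binding protein of the S100 family, had 6281 and 6046 in CIA_B, against 3128, 2389 and 3255 in NOCIA_B, a fold change of 1.09 ± 0.30 (SE, unadjusted p = 0.00394). S100a8 and S100a9 form calprotectin, the main cytosolic protein of neutrophils and a marker of joint inflammation. S100a8 had 12449 and 13108 in CIA_B and 6819, 5336 and 9740.3 in NOCIA_B, and S100a9 had 23567 and 24045 in CIA_B and 15011, 8243 and 21243 in NOCIA_B. Both were above all healthy arrays, yet with fold changes of 0.85 ± 0.67 and 0.79 ± 0.49 neither reached an unadjusted p under 0.05 in limma (unadjusted p = 0.226 for S100a8 and 0.135 for S100a9). Csf3r, the receptor of the growth factor G-CSF, had 1918 and 2524 in CIA_B and 863, 1201 and 1248 in NOCIA_B (fold change 1.01 ± 0.51). Of 14 neutrophil and granule markers 12 were above 0, with a median of 0.77, 6 had no overlap, all higher (12.7% of all genes), and 0 reached an unadjusted p under 0.05. Their summed signal was 45079 and 47570 in CIA_B, against 26925, 21675 and 40083 in NOCIA_B, and 0 of the 14 were listed at 0. The score of the list, in which each gene counts alike, did overlap. It was 0.05 and 0.295 in CIA_B, against -0.425, -0.954 and 0.246 in NOCIA_B. The part of neutrophils in the genes of this paragraph was not tested. Leaving out each of the 5 arrays gave medians between 0.54 and 0.85. The 21 monocyte markers had a median of 0.20, which was -0.06 without NOCIA_B replicate 1.

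Among mediators, Ccl4, a chemokine that draws in T cells and monocytes, had 3269 and 4681 in CIA_B, against 727, 1623 and 2575 in NOCIA_B (fold change 1.43 ± 0.58, unadjusted p = 0.0306). Il1b, the cytokine interleukin 1 beta, had 3636 and 1892 in CIA_B and 1054, 895 and 1383 in NOCIA_B. Its decoy receptor Il1r2 had 4081 and 2170.3 in CIA_B and 1953, 1251 and 844 in NOCIA_B. Neither of this pair overlapped between the groups, and neither reached the unadjusted threshold in limma (unadjusted p = 0.0944 for Il1b and 0.104 for Il1r2). Ptger4, a receptor for prostaglandin E2, had 214 and 336 in CIA_B and 130.0, 211 and 40.6 in NOCIA_B (fold change 1.37 ± 0.56). The lists that hold Ccl4, Il1b and Ptger4 were mixed. Of 19 inflammatory cytokines 12 were below 0, with a median of -0.07. Of 18 chemokines 11 were above 0 (median 0.16), and of 19 genes of prostaglandins and other eicosanoids 9 were (median -0.045). Of 27 genes of Toll-like receptors, the inflammasome and NF-kB 23 were above 0 with a median of 0.23. Of these, 4 were higher without overlap, a share near the 12.7% of all genes, and 0 reached an unadjusted p under 0.05. The feedback inhibitor Nfkbia had 9989 and 10079.6 in CIA_B and 8768, 5830.1 and 5316 in NOCIA_B, and Tnfaip3, an enzyme that ends NF-kB signalling, had 18511 and 20267 in CIA_B and 15509, 14846 and 15712 in NOCIA_B. Without CIA_B replicate 1 the median of this list was 0.08. Hmgb1, a nuclear protein that acts as an alarm signal outside cells, was on the lower side, with 4704 and 5416 in CIA_B, against 5071, 10587 and 10782 in NOCIA_B, where NOCIA_B replicate 1 lay inside the arthritic range. Sgk1, a kinase induced by glucocorticoids, had 2155 and 1870.1 in CIA_B and 1385, 1416 and 904 in NOCIA_B (fold change 0.73 ± 0.32), and Junb, an immediate early transcription factor, had 1249 and 1288 in CIA_B and 1074, 848 and 455 in NOCIA_B (fold change 0.77 ± 0.40). Of 17 glucocorticoid response genes 14 were above 0 (median 0.28). Without overlap 5 of the 17 were higher and 1 was lower (12.7% and 8.7% of all genes). Of 26 immediate early genes 21 were above 0 (median 0.28). Without CIA_B replicate 1 the medians of these lists were 0.15 and 0.02.

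Platelet markers had the lowest median of the 44 lists. Platelets carry RNA from their parent cells, the megakaryocytes. Gfi1b, a transcription factor of the megakaryocyte and erythroid lines, had 127 and 282 in CIA_B, against 333, 1259.8 and 1785 in NOCIA_B (fold change -2.26 ± 0.67, SE). F2rl2, the thrombin receptor PAR3, had 331 and 935 in CIA_B and 671, 4764 and 5910.5 in NOCIA_B, and here NOCIA_B replicate 1 lay between the arthritic arrays. Ptgs1, the cyclooxygenase that feeds thromboxane synthesis in platelets, had 2038 and 2646 in CIA_B and 2404, 13868 and 13217 in NOCIA_B, and P2rx1, the ATP-gated channel of platelets, had 684 and 1093 in CIA_B and 939.7, 4499 and 5295 in NOCIA_B. In each of these genes NOCIA_B replicates 2 and 3 were above the other 3 arrays. Of 23 platelet markers 22 were below 0, 13 reached an unadjusted p under 0.05 on the lower side (5.28% of all genes), 6 had no overlap and were lower (8.7% of all genes), and 0 were listed at 0. The summed signal of the list was 128718 and 184035 in CIA_B, against 181648, 394172 and 613761 in NOCIA_B. The median of -1.49 became -2.25 without NOCIA_B replicate 1, and lay between -1.80 and -1.07 without any other of the 5 arrays. The 13 markers under the unadjusted threshold became 0 without CIA_B replicate 1, 4 without NOCIA_B replicate 2 and 3 without NOCIA_B replicate 3.

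Erythroid markers were below 0 as well, and the size of their median depended on single arrays of both groups. Epor, the receptor of erythropoietin, had 123 and 169 in CIA_B, against 251, 512 and 575 in NOCIA_B (fold change -1.54 ± 0.41, SE). Its other tested probe sets had fold changes of -1.61 ± 0.66 and 0.13 ± 0.76, and the latter did not share this. Gata1, the master transcription factor of both lines, had 127 and 302 in CIA_B and 258, 736 and 1453 in NOCIA_B. All 29 tested erythroid markers were below 0, with a median of -1.24, and 6 reached an unadjusted p under 0.05 on the lower side (5.28% of all genes). That count was 1 without NOCIA_B replicate 3, 3 without NOCIA_B replicate 2 and 2 without either CIA_B array. Their summed signal was 112468 and 201847 in CIA_B, against 210462, 159512 and 718216 in NOCIA_B. The part of platelets and red cell precursors in the other lower genes was not tested. Without NOCIA_B replicate 3 the erythroid median was -0.39 and 23 of 29 were below 0, and without CIA_B replicate 1 it was -0.48.

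The promoters of Rgs18, which damps G protein signals in platelets, and of Epor are shown because each holds a binding motif of the GATA factors that direct both lines. The motif, AGATAA on either strand, was found in 3 of 16 platelet markers with a window (18.8%), in 4 of 20 erythroid markers (20%), in 6.33% of the windows of 8455 tested genes and in 11.3% of all windows. The gamma-activated site, searched in the same windows, was in 18.8% of the platelet markers too and in 0 of the erythroid ones. The Rgs18 window is chr13:59066293-59066592 and the Epor window chr8:28770273-28770572, both on the minus strand of GRCr8, and the capitals mark the motif, here read on the opposite strand as TTATCT:
Rgs18: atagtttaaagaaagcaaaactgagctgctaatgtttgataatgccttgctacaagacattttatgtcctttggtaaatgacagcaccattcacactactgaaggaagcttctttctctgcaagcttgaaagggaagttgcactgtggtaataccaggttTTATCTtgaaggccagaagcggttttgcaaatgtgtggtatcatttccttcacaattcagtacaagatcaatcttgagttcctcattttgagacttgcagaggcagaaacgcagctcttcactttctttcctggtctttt
Epor: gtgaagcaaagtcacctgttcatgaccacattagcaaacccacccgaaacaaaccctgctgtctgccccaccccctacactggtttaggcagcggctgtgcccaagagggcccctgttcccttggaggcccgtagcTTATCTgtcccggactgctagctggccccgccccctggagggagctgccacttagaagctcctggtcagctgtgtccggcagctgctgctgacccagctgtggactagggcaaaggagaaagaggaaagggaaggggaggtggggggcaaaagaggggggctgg
Rgs18 had 5956 and 7355 in CIA_B, against 9871, 25831 and 38006 in NOCIA_B. Both arthritic arrays lay below all healthy arrays, with replicate 1 the nearest.

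Of the 12 genes with the lowest p that the rule named on the lower side, 9 kept their place at the thresholds of the study without each of the 5 arrays. Rasgrp3, an exchange factor that switches on Ras and Rap GTPases, had 649 and 1134 in CIA_B, against 1775, 6857 and 4689.8 in NOCIA_B (fold change -2.17 ± 0.51, SE, unadjusted p = 0.0012). Src, the founding member of the Src kinases, had 219.8 and 224 in CIA_B and 408, 804 and 573 in NOCIA_B. A second Src probe set had a fold change of -1.15, beside -1.37 ± 0.29 for the first. Tnik, a kinase that acts on the actin skeleton and on Wnt signalling, had 369 and 368 in CIA_B and 571, 1259 and 969 in NOCIA_B. Its 4 tested probe sets ran from -1.49 to 0.69, so they did not share a direction. Ubash3b, a phosphatase that restrains tyrosine kinases, had 1639 and 1809.8 in CIA_B and 2302, 6271 and 7367 in NOCIA_B, and its second probe set had a fold change of -1.35. Dennd2c, an exchange factor of Rab GTPases, had 371 and 647 in CIA_B and 942, 3638 and 3679.7 in NOCIA_B. C1galt1, the enzyme that extends O-linked sugars on proteins, had 1873 and 1758 in CIA_B and 2615, 10478 and 5992 in NOCIA_B. For each of these genes NOCIA_B replicate 1 was the healthy array nearest to CIA_B, and it was still above both arthritic arrays. Lgals2, a galectin, had the largest fold change of the 12, -2.96 ± 0.82, with 78.8 and 225 in CIA_B and 314, 1500.0 and 2393 in NOCIA_B. Parvb, an adaptor between integrins and actin, had 259 and 499 in CIA_B and 666, 1823 and 2832 in NOCIA_B. Prtfdc1, a relative of the purine salvage enzyme HPRT, had 553 and 813 in CIA_B and 1092, 4001 and 5476 in NOCIA_B. The remaining 3 were Cpq, a peptidase, Pals1, a polarity scaffold, and Usp9x, a deubiquitinase whose other 3 tested probe sets had fold changes between -0.51 and 0.07, with fold changes of -1.87 ± 0.49 for Cpq, -1.01 ± 0.27 for Pals1 and -1.76 ± 0.45 for Usp9x.

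Adhesion and matrix genes were on the lower side, with part of them at low signals. The integrin and coagulation lists share genes with the platelet list, F13a1 and F2rl2 among them, so their medians are not separate results. Of 17 integrins 11 were below 0, with a median of -0.76, and 5 were lower without overlap (8.7% of all genes). Without NOCIA_B replicate 3 the median was -0.40. Itgav, the alpha V chain, had 634 and 633 in CIA_B, against 712, 2583 and 1999 in NOCIA_B (fold change -1.28 ± 0.47), while its other 2 tested probe sets had -0.15 and 0.10. Itga6, the alpha 6 chain of laminin receptors, had 5189 and 5393 in CIA_B and 5391, 21085 and 31077 in NOCIA_B, so that NOCIA_B replicate 1 did not stand apart from CIA_B. The other tested probe sets of Itga6 had fold changes between -1.945 and -0.013. Of 14 matrix proteins 12 were below 0, with a median of -0.77, and of -0.42 without NOCIA_B replicate 3. Thbs2, a matrix glycoprotein that restrains blood vessel growth, had 10.3 and 11.5 in CIA_B, against 111, 116 and 319.7 in NOCIA_B. Its arthritic signals are far under the median of their arrays, so the fold change of -3.88 ± 0.88 rests on dim values. Serpine2, an inhibitor of thrombin and plasminogen activators, had 39.5 and 29.7 in CIA_B and 53.7, 229 and 244 in NOCIA_B. Both arthritic signals and that of NOCIA_B replicate 1 lie under the median of their array, so this fold change rests on dim values too. Timp3, an inhibitor of metalloproteinases, had 475 and 526 in CIA_B and 532, 2527 and 3416 in NOCIA_B, and its 3 probe sets agreed within -1.88 to -1.73. F5, coagulation factor V, had 9123 and 10842 in CIA_B and 9875, 37295 and 40013 in NOCIA_B, and F13a1, the clot-stabilising factor XIII chain, had 4405 and 5327 in CIA_B and 4347, 21216 and 25136 in NOCIA_B. Of 15 coagulation and fibrinolysis genes 12 were below 0 (median -0.74), but 8 of 15 without CIA_B replicate 2, with a median of -0.21. Without NOCIA_B replicate 1 the median was -0.48, without NOCIA_B replicate 3 it was -0.49, and with no filter on low values it was -0.28, with 9 of 29 genes above 0. Cttn, which binds branched actin, had 264 and 372 in CIA_B and 405, 1979.5 and 1683 in NOCIA_B, and Cald1, which binds actin and myosin, had 579.7 and 777 in CIA_B and 772, 3852 and 4094 in NOCIA_B.

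**Figure D4:**
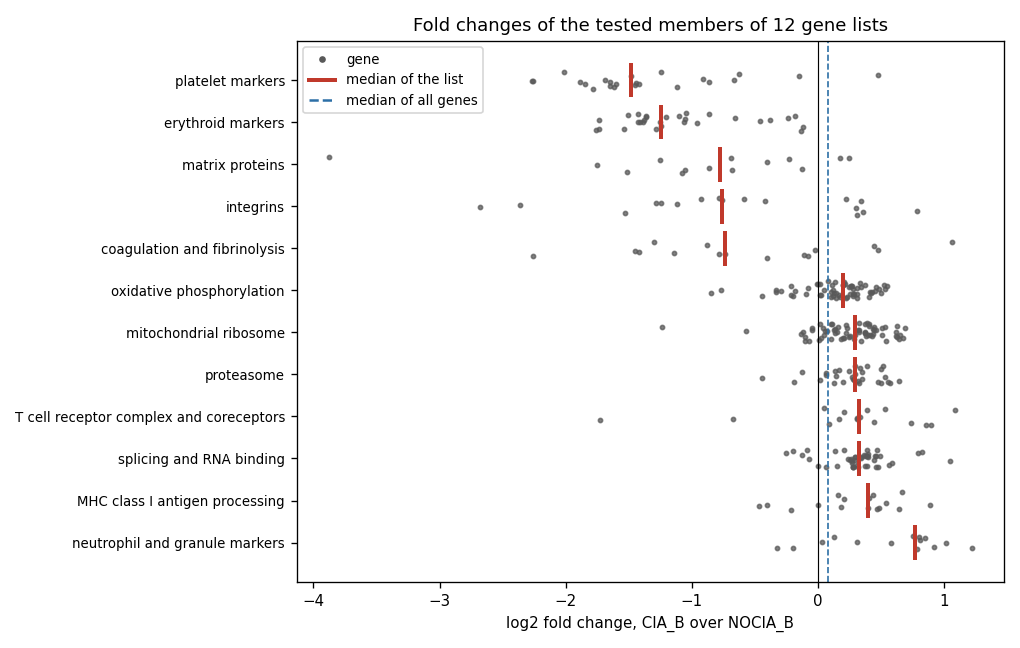
Log2 fold change, CIA_B over NOCIA_B (horizontal axis), of the tested members of 12 gene lists, each point a gene, with the list median as a red bar and the median of all genes (0.08) as a dashed line. Platelet and erythroid markers lie to the left with medians of -1.49 and -1.24, neutrophil markers to the right with 0.77, and the medians of the proteasome, mitochondrial ribosome and splicing lists lie between 0.29 and 0.33.

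Lists of large protein machines had medians a little above 0. The proteasome, the complex that degrades tagged proteins, had 28 of 31 genes above 0, with a median of 0.30, and 13 genes were higher without overlap (12.7% of all genes). Psmb2, a core subunit, had 3842 and 3518 in CIA_B, against 2917, 2519 and 2382 in NOCIA_B, and Psmd2, a subunit of its lid-bearing cap, had 2339 and 2224 in CIA_B and 2026, 1543 and 1407 in NOCIA_B. The mitochondrial ribosome had 58 of 67 genes above 0 (median 0.29), with Mrps35, a protein of its small subunit, at 477 and 521 in CIA_B and 406, 291 and 248 in NOCIA_B. Mrps18c, another protein of that subunit, was an exception, with 732 and 639.6 in CIA_B and 632, 2464 and 2704 in NOCIA_B, and its other probe sets had -0.88 and 0.44. Splicing and RNA-binding genes had 41 of 46 above 0 (median 0.33), with U2af1, which marks the 3' end of introns, at 4243 and 3275 in CIA_B and 3115, 1936 and 1652 in NOCIA_B. Of 62 genes of oxidative phosphorylation 49 were above 0 (median 0.20), and 20 were higher without overlap. Ndufb10, a complex I subunit, had 2197 and 2416 in CIA_B and 1909, 1638 and 1609 in NOCIA_B, while Ndufa1, another subunit of complex I, ran the other way, with 15638 and 21112 in CIA_B and 22447, 31959 and 48948 in NOCIA_B. Without NOCIA_B replicate 3 the medians were 0.19 for the proteasome, 0.19 for the mitochondrial ribosome, 0.12 for splicing and 0.19 for oxidative phosphorylation, beside 0.06 for all genes. The 41 proteins of the cytosolic ribosome gave a median of -0.06 and, with quantile normalization, 0.35, so no direction can be given for them.

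The 12 higher genes named by rule also held nuclear proteins. Dek, a chromatin protein that in people is also a target of autoantibodies in juvenile arthritis, had 1178 and 839 in CIA_B, against 541, 493 and 435 in NOCIA_B (fold change 1.03 ± 0.24, SE, unadjusted p = 0.00117), and its second probe set had 0.51. Med1, a subunit of the Mediator complex, had 1466 and 955 in CIA_B and 883, 367 and 431 in NOCIA_B, but its second probe set had 0.25. Rora, a nuclear receptor of the circadian clock and of T helper 17 cells, had 2759 and 1736 in CIA_B and 1184, 916 and 256 in NOCIA_B. Its arthritic signals were higher than each healthy one, and NOCIA_B replicate 3 was the lowest (fold change 1.75 ± 0.59). Eml4, a microtubule-binding protein, had 3 probe sets with fold changes between 0.74 and 1.02. The other higher genes named by rule were Nap1l5, a relative of histone chaperones (1.01 ± 0.29), Slc4a7, a bicarbonate transporter (1.05 ± 0.30), and C19h16orf87 (1.11 ± 0.34). Egln3, an oxygen-sensing hydroxylase, was on the lower side, with 198 and 199 in CIA_B and 271, 803 and 982 in NOCIA_B, and Ldhb, the lactate dehydrogenase B chain, on the higher side, with 891 and 1084 in CIA_B and 532, 544 and 652 in NOCIA_B.

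Of the single genes looked up because the study measured or names them, Src alone reached its thresholds here. Adora2a, an adenosine receptor, had 761 and 452 in CIA_B and 508, 587 and 323 in NOCIA_B. Ada, which breaks down adenosine, had 684 and 581 in CIA_B and 462, 592 and 436 in NOCIA_B. Fos, an immediate early factor, had 5022 and 3470.2 in CIA_B and 3263, 5113 and 2443 in NOCIA_B, and Gjb2, the gap junction protein connexin 26, had 3313 and 1808 in CIA_B and 1822, 2378 and 922 in NOCIA_B. The groups overlapped for all 4 of these genes, and the second tested probe set of Fos had a fold change of -0.73. Wnt5b, Il6 and Tnf had no probe set above the filter, and no probe set carried the symbol Adora3. The study measured Adora2a, Adora3, Ada and S100a8/a9 as proteins in serum. It measured Fos, Wnt5b and Gjb2 by PCR in synovial cells cultured with serum. There the sera came from stimulated and from untreated rats, so material and comparison differ from those here. The study also measured cytokines by PCR in blood mononuclear cells, across its therapy arms.

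The second contrast of arthritic with healthy rats, MS_A against NOCIAMS_A, shares no array with the first. Both of its groups had been stimulated for 34 days, so therapy and time differ from the contrast before therapy. Most of the lower genes had the other direction there. Of the 391 genes lower in CIA_B, 317 had a fold change above 0 in MS_A against NOCIAMS_A, with a median of 0.60 there and -1.48 before therapy. For 157 of them all MS_A arrays were above all NOCIAMS_A arrays, and for 8 all were below. Of the 49 genes higher in CIA_B 35 were below 0, with a median of -0.24. Over all genes 5475 (54.2%) were below 0 and 4632 above, and MS_A did not overlap with NOCIAMS_A on the higher side for 7.3% and on the lower side for 9.92%. Rasgrp3 had 1881, 3339 and 3990.2 in MS_A, against 1501, 1117 and 1185 in NOCIAMS_A, and Epor had 297, 459 and 478 in MS_A, against 194, 177 and 205 in NOCIAMS_A, so that in both genes the arthritic rats were lower before therapy and higher after 34 days. Gzmm, with 4025, 7721 and 6213 in MS_A and 4255, 4581 and 3898 in NOCIAMS_A, and Psmb9, with 4937, 6648 and 6933 in MS_A and 4393, 4043 and 5165 in NOCIAMS_A, had fold changes above 0 in both contrasts. In both genes the groups overlapped in the second contrast. The NK and cytotoxic list had a median of 0.65 there, with 22 of 24 above 0, against 0.24 before therapy. The list of the T cell receptor complex and coreceptors had -0.13 there, with 9 of 16 below 0. Of the other MHC class I genes described above, Tap2 had 0.085 there, Nlrc5 -0.14 and Psme1 -0.17. The MHC class I list had a median of 0.07 there, with 11 of 16 above 0, against 0.40 before therapy. The platelet list had a median of 0.79 in this contrast, with 21 of 23 markers above 0, and the erythroid list one of 0.31 with 27 of 29 above 0. The part of these lists in the turn of direction was not tested. A test of the difference between the contrasts in limma called 0 of 18515 probe sets at the adjusted p (0%, lowest adjusted p = 0.360), with 2423 at an unadjusted p under 0.05 (13.1%). Without NOCIA_B replicate 1 it called 980, and without CIA_B replicate 1 it called 1.

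**Figure D5:**
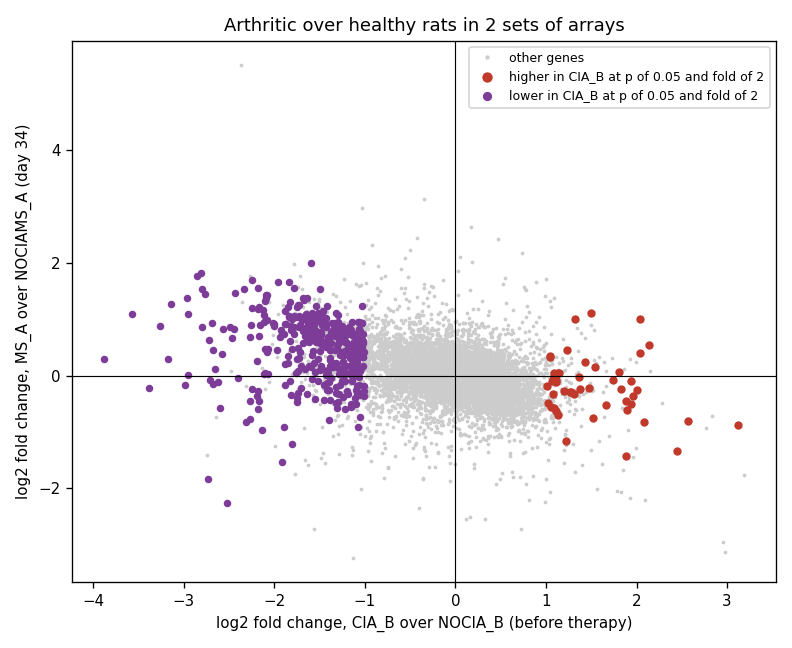
Log2 fold change of each of 10107 genes before therapy (CIA_B over NOCIA_B, horizontal axis) and after 34 days (MS_A over NOCIAMS_A, vertical axis), with genes at the thresholds of the study before therapy in red (49 higher) and purple (391 lower). Of the purple points 317 lie above 0 on the vertical axis, and of the red points 35 lie below it.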

How the data were processed

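Blood mononuclear cells were profiled on whole-genome Affymetrix rat arrays, 14 in all. The authors deposited MAS5 signal intensity on a linear scale for 31099 probe sets, which the R package affy had made from the scans, with a trimmed mean of 500 on every array (2% left out at each end). Its version is not given in the sources used here, and no scan date or detection call was used. Signals were taken to log2, 57 control probe sets were left out, and the 18515 probe sets above the array median on 2 or more of 14 arrays were tested. Symbols came from the platform annotation (20826 probe sets with 1 symbol, 436 with several and 9780 with none, the last 2 kinds unnamed). A gene was read by its probe set with the highest mean. Groups came from the labels. A mean per group was fitted over all 14 arrays in limma 3.58.1 (R 4.3.3) with moderated variances, two-sided tests and Benjamini-Hochberg adjustment, and the steps were tested on simulated data. The rule named the 12 genes per direction with the lowest p at the thresholds of the study whose arrays did not overlap and whose higher mean was above the 60th percentile, up to 4 members with the lowest p from each of 44 gene lists, and a few single genes that the study measured or names. The genes and lists were chosen with earlier results of these data known, and the text describes part of the lists. Alternatives were quantile normalization, a pseudocount of 16, no filter, a filter of 7 arrays, the arrays of the groups alone, array weights, no moderation, a replicate block, the mean over the probe sets of a gene, and leaving out each array. The number of arrays limits the precision.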

Additional observations from a re-analysis of the deposited data

Results flagged for a closer look

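Ciita is not among the 86 named probe sets counted here. Of the 86, 21 did not overlap between arthritic and healthy rats in either contrast and pointed in opposite directions. Of the 21, 3 were higher and 18 lower in CIA_B than in NOCIA_B. Of these 86 probe sets 71 did not overlap in the first contrast, which helped to choose them. Over all 10107 genes 319 (3.16%) had such opposite directions, which is 14.7% of the 2163 genes that did not overlap in the first contrast. The values here are differences of log2 fold changes, CIA_B against NOCIA_B minus MS_A against NOCIAMS_A, from limma, and none passed its test at the adjusted p (adjusted p between 0.36 and 0.374). The 3 that were higher before therapy were Eml4 with 1.68, Tnfaip3 with 0.66 and Psme1 with 0.64. Among the lower genes with the lowest p the difference was -4.34 for Lgals2, -3.94 for Dennd2c, -3.44 for Prtfdc1, -3.38 for Rasgrp3, -2.79 for Cpq, -2.54 for C1galt1, -2.52 for Usp9x, -2.39 for Ubash3b, -1.94 for Tnik and -1.44 for Pals1. The platelet and erythroid genes were Gfi1b with -2.95, Epor with -2.61 and Rgs18 with -2.48. Egln3 had -2.71, Cttn had -2.62, Serpine2 had -2.55, Itgav had -1.87 and Ndufa1 had -1.03.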

How the results depend on the processing

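With array weights limma called 765 probe sets at the adjusted p, and leaving out 1 of the 5 arrays gave 0 to 168. At the thresholds of the study the total was 1524 with array weights (405 higher, 1119 lower), 1780 with no filter (351 higher, 1429 lower), 566 without moderation (454 lower) and, on the 5 arrays alone, 454 lower, against 866 (157 higher, 709 lower). Leaving out 1 array gave 364 to 2101 in all, 84 to 817 higher and 255 to 1284 lower. The test of the difference between contrasts called 1651 with array weights and 0 to 980 with 1 array left out. The cause was not tested. The replicate numbers did not pair the samples, since deviations of same-numbered CIA_B and NOCIA_B arrays correlated at 0.174 and -0.148, and a fit with the replicate number as a block called 0 probe sets at the adjusted p and put 705 at the thresholds of the study (132 higher, 573 lower).

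Of the same 86 probe sets, 46 passed at the adjusted p with array weights and 23 without NOCIA_B replicate 1. None of the 86 did under any other alternative that kept 2 or more arrays in each group. Direction turned for 3 of them, none past a threshold: Lyz2 had 0.022 with array weights, 0.062 with quantile normalization and -0.426 to 0.018 with 1 array left out (0.018 without NOCIA_B replicate 3), Adora2a had -0.020 to 0.732 with 1 array left out (-0.020 without CIA_B replicate 1), and Fos had -0.142 with array weights. Between 0 and 6 of the 44 list medians changed sign under each alternative, the 6 without NOCIA_B replicate 3. With 2 and 3 arrays and no detection call, small differences and those of dim probe sets such as Thbs2, Serpine2, Cd4 and Xcl1 cannot be placed.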
